A study of Zea mays with 12 samples.

Results

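*ZmGRF3* (GRMZM2G124566), *ZmGRF5* (GRMZM2G098594) and *zar1* (GRMZM2G446201) are 3 maize genes of organ growth, and their expression in bract primordia was compared among 4 genotypes. They are 3 of the 20168 genes in the deposited table, and they were taken by their identifiers because the study names them among the growth genes that respond to loss of *tasselsheath* (*tsh*) function. The study picked them from these same libraries, so the tests below are not independent evidence of their direction. Each genotype was represented by 3 biological replicates, which makes 12 RNA-seq libraries.

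The *tsh1* plants carried *tsh1-ref*, in which a large deletion lies beside a *Mu* transposon insertion. The study reports that genes next to *tsh1* also had no transcripts in *tsh1-ref*. Loss of *tsh1* and loss of these neighbors therefore cannot be told apart in plants with this allele. The *tsh4* plants carried *tsh4-rm*, which has a *Mutator* transposon in the first intron. The *tsh1 tsh4* plants were double mutants, and B73 was the wild type. Both alleles had been introgressed at least 5 times into B73, so all 4 genotypes share this background, apart from any remaining donor segments, which were not examined. Very young bracts of the ear, already raised as a ridge but without a visible meristem beside them, were cut out by laser microdissection, with about 750 microns of cells per replicate, and the RNA was amplified in vitro before sequencing.

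The bract is the leaf that subtends a branch or flower. Many bracts of maize inflorescences start as a small ridge and then stop growing, while others, such as glumes and lemmas, do grow out. The suppression requires the GATA transcription factor TSH1 and the SBP transcription factor TSH4. GROWTH-REGULATING FACTOR (GRF) proteins are plant transcription factors that act with GRF-INTERACTING FACTOR (GIF) co-activators and promote cell proliferation in growing leaves. *zar1* belongs to a family named for *ARGOS* of Arabidopsis, an auxin-inducible gene that increases the size of lateral organs.

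The names need care because gene numbers differ between naming systems. The RefSeq gene table for the NAM-5.0 assembly of B73 calls GRMZM2G124566 *GRF9* and GRMZM2G098594 *GRF14*, and it gives the names *GRF3* and *GRF5* to GRMZM2G105335 and GRMZM2G129147. It lists both *ZAR1* and *ZAR2* as names of GRMZM2G446201. The names *ZmGRF3*, *ZmGRF5* and *zar1* are used here for the 3 identifiers given above, as the study uses them.

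The libraries held 49481413 to 110703826 reads on genes, and in every genotype replicate 1 had the most reads. Values are normalized CPM, the reads of a gene relative to the size of the library, and are not divided by gene length, so levels are compared between genotypes and not between genes. In these libraries, the *tsh1* gene was at 0.527 ± 0.246 CPM (SD, n = 3) in *tsh1* and 0.521 ± 0.0749 CPM in *tsh1 tsh4*, against 67.4 ± 19.6 CPM in B73. It was also lower in *tsh4*, at 22.5 ± 3.42 CPM (log2 fold change -1.55 from B73, limma adjusted p = 0.00168), so *tsh4* plants had reduced *tsh1* expression as well. The *tsh4* gene was at 73.7 ± 7.83 CPM in *tsh4*, and *tsh1 tsh4* had 60.1 ± 16.7 CPM of it, against 1323 ± 249 CPM in B73, and its difference from B73 in *tsh1* (1063 ± 273 CPM) did not pass (limma adjusted p = 0.79). The bract marker *zyb15* averaged 1642, 1496 and 1551 CPM in *tsh1*, *tsh4* and *tsh1 tsh4*, and 1270.0 CPM in B73, with no difference from B73 past the threshold (limma adjusted p = 0.529 to 0.668).

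*ZmGRF3*, the first of the GRF genes, averaged 1.23, 2.64 and 2.09 times its B73 level in *tsh1*, *tsh4* and *tsh1 tsh4*. Its level was 56.5, 70.3 and 40.7 CPM in the *tsh1* libraries (replicates 1, 2 and 3). In *tsh4* it was 103, 128 and 129 CPM. The *tsh1 tsh4* libraries had 143, 68.8 and 73.6 CPM, and the B73 libraries had 60.0, 41.7 and 34.8 CPM. All *tsh4* and *tsh1 tsh4* libraries were above all B73 libraries, whereas the *tsh1* range overlapped that of B73. The *tsh1 tsh4* range was wide, since replicate 1 was at 2.01 times the mean of the other 2 replicates, and those replicates lay close to the highest *tsh1* library.

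**Figure D1:**
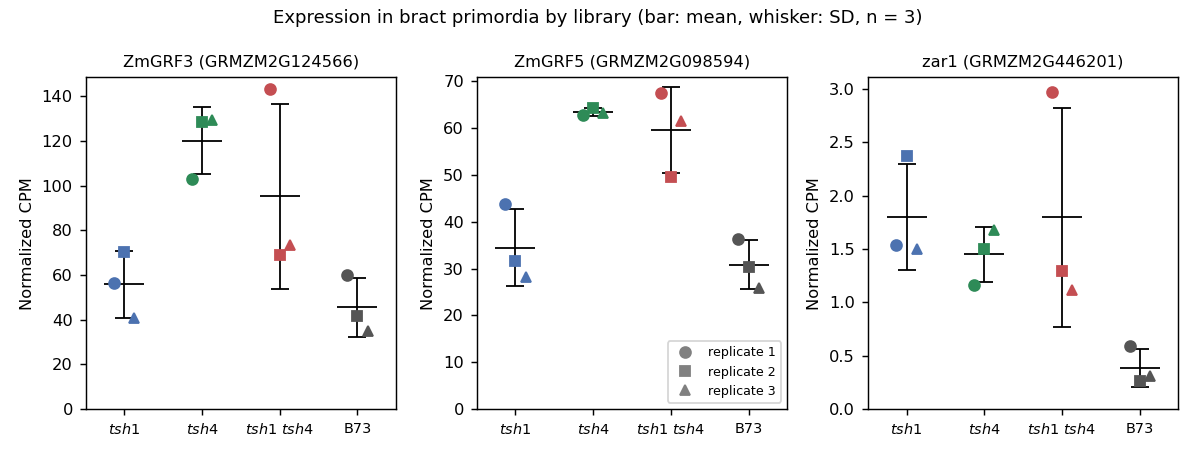
Normalized CPM of *ZmGRF3*, *ZmGRF5* and *zar1* (y axes, each from 0) in the 3 libraries of *tsh1*, *tsh4*, *tsh1 tsh4* and B73 (x axes), with the shape of a point giving the replicate number, the bar the mean and the whisker the SD. The *tsh4* and *tsh1 tsh4* libraries sit above B73 for all 3 genes, the *tsh1* libraries sit above B73 for *zar1* alone, and *tsh1 tsh4* replicate 1 is the highest of its genotype in each panel.

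*ZmGRF5*, the other GRF gene, had the same order of genotypes as *ZmGRF3* when ranked by their means, with far less spread in *tsh4*. Its level was 43.7, 31.6 and 28.1 CPM in *tsh1*. The *tsh4* libraries had 62.7, 64.3 and 63.3 CPM, and the *tsh1 tsh4* libraries had 67.6, 49.5 and 61.5 CPM. In B73 it was 36.3, 30.3 and 25.8 CPM. Every *tsh4* and *tsh1 tsh4* library exceeded every *tsh1* and B73 library, and *tsh1* and B73 overlapped. The coefficient of variation was 1.24% among the *tsh4* replicates and 15.4% to 23.7% in the other genotypes.

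The third gene, *zar1*, was weakly expressed, with 15 to 237 reads per library, and was higher in every mutant library than in any B73 library. Its level was 1.54, 2.37 and 1.50 CPM in *tsh1*. It was 1.17, 1.50 and 1.68 CPM in *tsh4*. In *tsh1 tsh4* it was 2.97, 1.295 and 1.12 CPM, against 0.592, 0.264 and 0.308 CPM in B73. The 3 mutants overlapped each other and none overlapped B73, although the gap was narrow beside the spread, from 1.12 CPM in the lowest mutant library to 0.592 CPM in B73 replicate 1. The counting intervals of these libraries did not overlap, with an exact 95% Poisson interval of 0.865 to 1.43 CPM for *tsh1 tsh4* replicate 3 and 0.459 to 0.752 CPM for B73 replicate 1. These intervals cover counting error only, since the RNA was amplified and the reads carry no molecular identifiers.

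Each mutant was then compared with B73 by limma on the log2(CPM + 0.1) scale, and p-values were corrected over the 20168 genes (Benjamini-Hochberg). To be called differentially expressed, a gene needed an adjusted p no higher than 0.05 together with a log2 fold change of 1 or more in size. The pseudocount of 0.1 understates the fold changes of weakly expressed genes such as *zar1*. In these bulk samples, more cells that express a gene and more RNA of it per cell cannot be told apart.

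In *tsh1*, 1 of the 3 genes was called and higher, against 0.441% of all genes. This gene was *zar1*, with a log2 fold change of 1.99 (SE 0.35, 95% interval 1.24 to 2.74, limma adjusted p = 0.00637). *ZmGRF3* averaged 55.8 ± 14.8 CPM in *tsh1* and 45.5 ± 13.0 CPM in B73 (SD, n = 3 each), and its log2 fold change was 0.30 with an interval of -0.28 to 0.87 (limma adjusted p = 0.881). *ZmGRF5* averaged 34.5 ± 8.17 CPM in *tsh1* and 30.8 ± 5.25 CPM in B73, and its log2 fold change was 0.15 with an interval of -0.25 to 0.55 (limma adjusted p = 0.936). The intervals leave room for a rise of up to 1.83-fold in *ZmGRF3* and 1.46-fold in *ZmGRF5*, so neither gene is shown to be at its B73 level in *tsh1*.

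In *tsh4*, all 3 genes were called and higher, against 2.04% of all genes. *ZmGRF3* averaged 120.1 ± 14.9 CPM in *tsh4* and 45.5 ± 13.0 CPM in B73, a log2 fold change of 1.43 (SE 0.27, limma adjusted p = 0.00376). *ZmGRF5* averaged 63.4 ± 0.786 CPM in *tsh4* and 30.8 ± 5.25 CPM in B73, a log2 fold change of 1.05 (SE 0.19, limma adjusted p = 0.00236). This call lay close to the fold threshold and was lost without B73 replicate 3, at a log2 fold change of 0.93. *zar1* averaged 1.45 ± 0.261 CPM in *tsh4* and 0.388 ± 0.178 CPM in B73, a log2 fold change of 1.71 (SE 0.35, limma adjusted p = 0.00728). A pseudocount of 1, above the B73 level of the gene, gave 0.82 and ended this call.

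In *tsh1 tsh4*, *ZmGRF3* and *zar1* were called and higher, 2 of the 3 genes, against 2.69% of all genes. *zar1* averaged 1.80 ± 1.02 CPM in *tsh1 tsh4* and 0.388 ± 0.178 CPM in B73, a log2 fold change of 1.89 (SE 0.35, limma adjusted p = 0.00214), which a pseudocount of 1 brought to 0.96, under the fold threshold. *ZmGRF5* averaged 59.5 ± 9.18 CPM in *tsh1 tsh4* and 30.8 ± 5.25 CPM in B73. Its log2 fold change of 0.95 (SE 0.19, limma adjusted p = 0.00353) passed the adjusted p and fell short of the fold threshold, and it passed both without B73 replicate 1 (1.07) or without *tsh1 tsh4* replicate 2 (1.08). By adjusted p alone all 3 genes passed in *tsh1 tsh4*, against 8.06% of all genes.

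The call of *ZmGRF3* in *tsh1 tsh4* was the least stable of those against B73. It averaged 95.2 ± 41.5 CPM in *tsh1 tsh4* and 45.5 ± 13.0 CPM in B73, a log2 fold change of 1.02 (SE 0.27, limma adjusted p = 0.0268). Without *tsh1 tsh4* replicate 1 the log2 fold change was 0.68 (limma adjusted p = 0.0967), and the call was also lost without B73 replicate 2 (0.97, adjusted p = 0.0954) or replicate 3 (0.84, adjusted p = 0.13). With the 6 libraries of these genotypes alone in the fit the limma adjusted p was 0.0541, and the call was lost. Adding their replicate numbers as a block gave a limma adjusted p of 5.32e-06. This block was chosen after the data were seen and the labels name no shared batch, so that value adds no support to the call. In all of these fits the difference stayed above 0.

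For every comparison with B73 in which the libraries did not overlap, a 2-sided exact permutation test of 3 against 3 libraries gave p = 0.1, the smallest value that this design allows. A gap of this kind, in either direction, thus has a probability of 0.1 for a gene whose genotypes do not differ. The share of all genes with such a gap was not counted, so the gaps given here are descriptions. The GRF genes in *tsh1*, which overlapped B73, had an exact permutation p of 0.5 (*ZmGRF3*) and 0.6 (*ZmGRF5*).

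**Figure D2:**
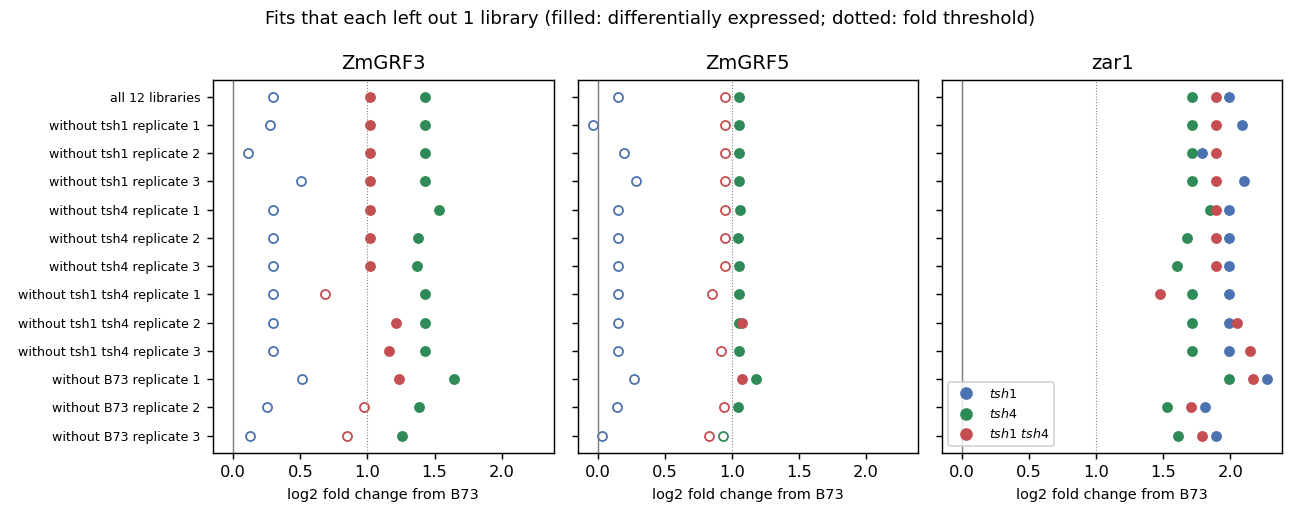
Log2 fold change from B73 (x axes) of *ZmGRF3*, *ZmGRF5* and *zar1* in each mutant, with all 12 libraries (top row) and in the fits that each left out the library named on the y axis. Filled points were differentially expressed and the dotted line marks the fold threshold of 1. The *zar1* points stay filled in all fits, the *ZmGRF3* points of *tsh1 tsh4* are open in 3 of the 12 reduced fits, and the *ZmGRF5* points of *tsh4* and *tsh1 tsh4* lie on both sides of the threshold.

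The single mutants were then compared with each other, bearing in mind that *tsh1* expression was also reduced in *tsh4*. *ZmGRF3* was 2.19-fold higher in *tsh4* than in *tsh1* (log2 difference 1.13, SE 0.27, limma adjusted p = 0.0223) and was called, against 2.25% of all genes called higher. In 4 of the 12 fits without 1 library this adjusted p rose above 0.05, to at most 0.141 without *tsh1* replicate 3. *ZmGRF5* was 1.87-fold higher in *tsh4* than in *tsh1* (log2 difference 0.90, SE 0.19, limma adjusted p = 0.00908), which passed the adjusted p, as did 4.1% of all genes, but not the fold threshold, and its adjusted p was 0.0615 without *tsh1* replicate 3. The *zar1* levels of *tsh4* and *tsh1* were not distinguished, with a log2 difference of -0.28 and a 95% interval of -1.03 to 0.47 (limma adjusted p = 0.912).

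When the double mutant was set against *tsh1*, *ZmGRF5* passed the adjusted p at a log2 difference of 0.80 (SE 0.19, limma adjusted p = 0.019), as did 4.37% of all genes, and stayed under the fold threshold, so that 0 of the 3 genes were called, against 3.6% of all genes in either direction. The adjusted p of *ZmGRF5* rose above 0.05 without *tsh1* replicate 2 (0.068) or 3 (0.115), or without *tsh1 tsh4* replicate 1 (0.0709) or 3 (0.0842). At an unadjusted limma p of at most 0.05 there were 2 of the 3, and 2152 of 20168 genes. Both edgeR and DESeq2 on the recovered reads also called 0 of the 3, against 729 and 848 of all genes. *ZmGRF3* differed by 0.72 with an interval of 0.15 to 1.296, which did not pass (limma adjusted p = 0.229), and its *tsh1 tsh4* and *tsh1* libraries overlapped. *zar1* differed by -0.10 with an interval of -0.85 to 0.65 (limma adjusted p = 1.0).

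Against *tsh4*, the double mutant had a log2 difference of -0.41 (interval -0.99 to 0.16) for *ZmGRF3*, -0.10 (-0.50 to 0.30) for *ZmGRF5* and 0.18 (-0.57 to 0.93) for *zar1*. None of the 3 genes passed in this comparison, in which 0.674% of all genes were called. None of the 3 had an unadjusted limma p of at most 0.05, which 1338 of 20168 genes had. The counts from edgeR and DESeq2 were also 0 of the 3, against 116 and 214 of all genes. All limma adjusted p-values were between 0.958 and 0.976. The intervals reach down to 0.505-fold for *ZmGRF3* and up to 1.90-fold for *zar1*, so the double mutant is not shown to equal *tsh4*.

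**Figure D3:**
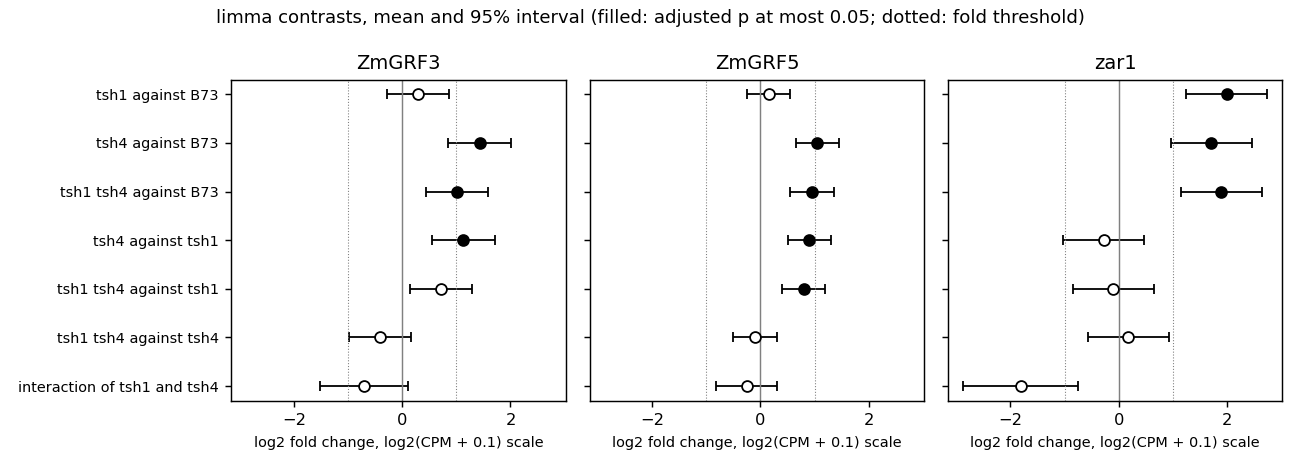
Log2 differences (x axes, log2(CPM + 0.1) scale) with 95% intervals from limma for *ZmGRF3*, *ZmGRF5* and *zar1* in the 7 contrasts on the y axis. Filled points have an adjusted p of at most 0.05 and dotted lines mark the fold thresholds. The GRF genes separate *tsh4* and *tsh1 tsh4* from B73, *zar1* separates all 3 mutants from B73, and the interaction of *zar1* lies furthest below 0.

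The interaction asks whether the change in *tsh1 tsh4* differs, on the log2 scale, from the changes of the single mutants added together. For *zar1* the single changes add up to 3.70, or 13.0-fold, and the change in *tsh1 tsh4* was 1.89, or 3.71-fold. The interaction was -1.81 (SE 0.50, 95% interval -2.87 to -0.75), with an unadjusted p of 0.00227 and an adjusted p of 0.254 from limma, so it did not pass over all genes. For *ZmGRF3* the sum of the single changes was 1.72 against 1.02 in *tsh1 tsh4*, an interaction of -0.71 (SE 0.38, limma adjusted p = 1.0). *ZmGRF5* had an interaction of -0.25 with an interval of -0.82 to 0.31 (limma adjusted p = 1.0).

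None of the 3 interactions was called, against 0.288% of all genes. An unadjusted limma p of at most 0.05 was found for 1 of the 3, and for 1073 of 20168 genes. All 3 lay below 0, as did 11 of the 13 other GRF genes and 2 of the 4 other ARGOS-like genes. The 3 genes were picked from these libraries and B73 enters this contrast, so the shared sign is only a description. Neither edgeR nor DESeq2 called any of the 3 interactions. The interaction of *zar1* passed without *tsh1 tsh4* replicate 1, at -2.22 (limma adjusted p = 0.0375). With the deepest library of each genotype left out, an alternative chosen after the values were seen, the interaction passed for *zar1* (-2.74, adjusted p = 0.00416) and *ZmGRF3* (-1.34, adjusted p = 0.0265), and 452 genes passed in place of 58.

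Within a genotype, the same library was often the highest or the lowest for all 3 genes. Replicate 1 of *tsh1 tsh4* and replicate 1 of B73 were the highest of their genotype for all 3 genes. In *tsh1*, replicate 3 was the lowest for all 3, and in *tsh4*, replicate 1 was the lowest for all 3. In *tsh1 tsh4* the highest library exceeded the mean of the others 2.01-fold for *ZmGRF3*, 1.22-fold for *ZmGRF5* and 2.46-fold for *zar1*. The corresponding ratios in B73 were 1.57, 1.29 and 2.07. Replicate 1 was also the deepest library, and the part of depth in these differences was not tested.

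The GRF pair did not keep a fixed proportion. The ratio of *ZmGRF3* to *ZmGRF5* CPM, which is compared between libraries and not read as a ratio of transcripts, averaged 1.66 ± 0.501 for *tsh1*, 1.89 ± 0.220 for *tsh4*, 1.57 ± 0.484 for *tsh1 tsh4* and 1.46 ± 0.168 for B73 (SD, n = 3 each). The lowest ratio was 1.198 in *tsh1 tsh4* replicate 3 and the highest was 2.23 in *tsh1* replicate 2, so the range within mutants was wider than the differences between the genotype means.

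The other genes of the 3 families were examined to see how far the pattern extended. Of 16 GRF genes in the RefSeq gene table, 15 are listed in the deposited table. In *tsh1*, where limma called 1.16% of all genes in either direction, none of the 15 was called by limma, edgeR or DESeq2. An unadjusted limma p of at most 0.05 was found for 2 of the 15, and for 1875 of all 20168 genes. In *tsh4*, 2 were called and higher and 1 was called and lower, beside 2.04% and 1.77% of all genes. The *tsh1 tsh4* mutant had 1 called and higher and 1 called and lower, beside 2.69% and 3.15% of all genes. *ZmGRF3* and *ZmGRF5* were the 2 higher genes in *tsh4*, and *ZmGRF3* was the higher gene in *tsh1 tsh4*. These counts are those of limma and edgeR, and DESeq2 called 3 higher in *tsh4*, with *GRF7* added. At an unadjusted limma p of at most 0.05 there were 8 of the 15 in *tsh4*, 6 of them higher. The *tsh1 tsh4* mutant had 6 of the 15, 4 of them higher. Over all 20168 genes there were 3078 in *tsh4* and 3702 in *tsh1 tsh4*. The family counts were 6 and 4 of 13 genes without *ZmGRF3* and *ZmGRF5*.

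Among the 13 GRF genes other than these, the median log2 fold change was 0.09 for *tsh1*, 0.36 for *tsh4* and 0.11 for *tsh1 tsh4*, beside medians over all genes of 0.00, -0.01 and -0.01. Positive values were found for 8, 10 and 7 of the 13 in that order of genotypes. *GRF2* (GRMZM2G099862) averaged 72.6, 85.4 and 93.6 CPM in *tsh1*, *tsh4* and *tsh1 tsh4*, and 49.1 CPM in B73. Its log2 fold change passed the adjusted p in *tsh4* (0.80, limma adjusted p = 0.0058, as did 4.93% of all genes) and *tsh1 tsh4* (0.93, limma adjusted p = 0.00101), under the fold threshold. *GRF1* GRMZM2G178261, 1 of 2 listed genes with that name, passed the adjusted p in *tsh1 tsh4* alone (0.82, limma adjusted p = 0.00515). *GRF7* had a log2 fold change of 1.05 in *tsh4* that did not pass in limma (adjusted p = 0.0776) or edgeR (0.108) and passed in DESeq2 (1.01, adjusted p = 0.0331).

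*GRF13* (GRMZM2G018414) went the other way from the GRF pair. The *tsh4* libraries had 14.3 to 16.9 CPM and the *tsh1 tsh4* libraries 12.1 to 17.6 CPM, against 28.7 to 40.0 CPM in B73. These ranges did not overlap B73, and the log2 fold changes were -1.11 in *tsh4* (limma adjusted p = 0.00148, and -0.99, no longer called, without B73 replicate 2) and -1.28 in *tsh1 tsh4* (limma adjusted p = 0.000232). In *tsh1* it averaged 25.0 ± 3.19 CPM against 34.0 ± 5.67 CPM in B73, which did not pass (limma adjusted p = 0.448).

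**Figure D4:**
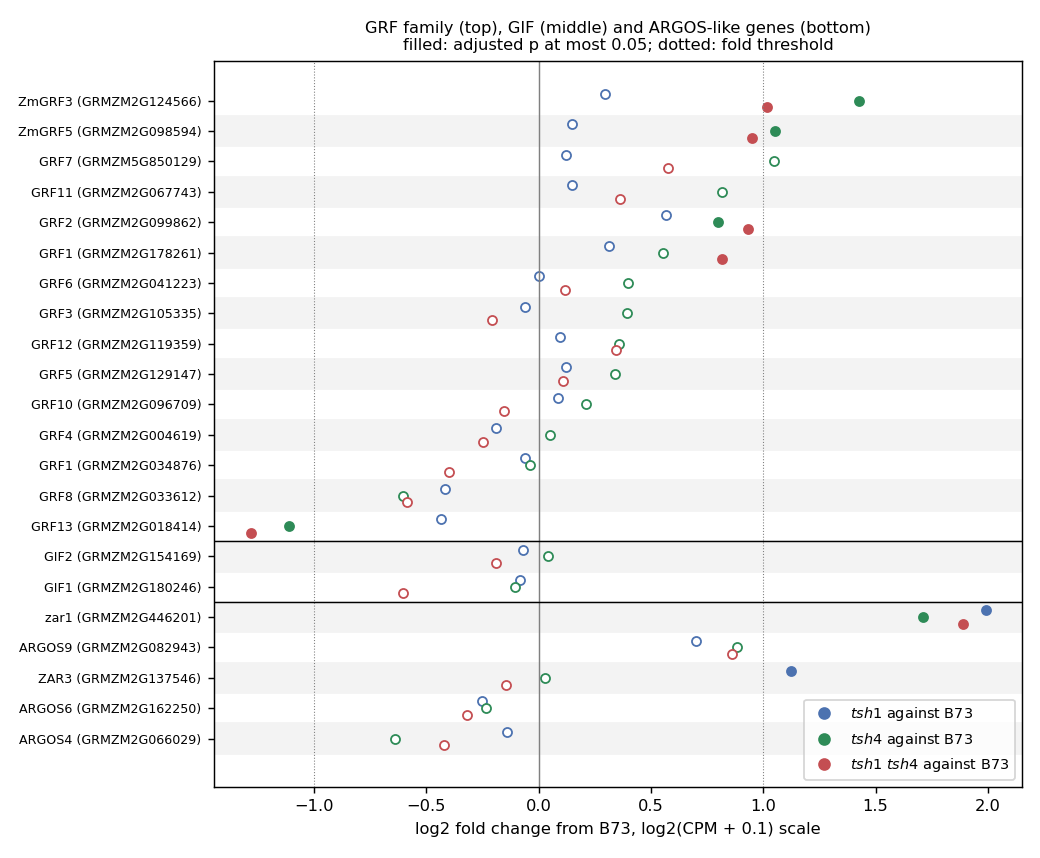
Log2 fold change from B73 (x axis) in *tsh1*, *tsh4* and *tsh1 tsh4* for the 15 GRF, 2 GIF and 5 ARGOS-like genes of the deposited table (y axis, ordered within each family by the value in *tsh4*). Filled points have an adjusted p of at most 0.05 and dotted lines mark the fold threshold. *ZmGRF3* leads the GRF family in *tsh4*, followed at nearly equal values by *ZmGRF5* (1.053) and *GRF7* (1.046, open point). *GRF13* lies at the lower end of the family, and *zar1* leads the ARGOS-like genes in all 3 mutants.

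Summed over the 15 GRF genes, *tsh1* had 1176 ± 105 CPM, *tsh4* 1476 ± 90.4 CPM and *tsh1 tsh4* 1275 ± 273 CPM, against 1102 ± 121 CPM in B73. *ZmGRF3* made up 4.71%, 8.13% and 7.28% of this sum in *tsh1*, *tsh4* and *tsh1 tsh4*, against 4.08% in B73. *ZmGRF5* made up 2.91%, 4.31% and 4.71% in the same mutants, against 2.79% in B73. These shares are weighted by gene length, and only their differences between genotypes are read.

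Of 3 GIF co-activator genes in the RefSeq gene table, 2 are listed, and neither was called in any mutant by limma, edgeR or DESeq2. *GIF1* (GRMZM2G180246) averaged 1749 ± 348 CPM for *tsh1*, 1718 ± 366 CPM for *tsh4* and 1225 ± 298 CPM for *tsh1 tsh4*, against 1830 ± 173 CPM in B73. The double mutant libraries of *GIF1* were all below those of B73, with a log2 fold change of -0.60 that had an unadjusted p under 0.05 and did not pass (limma adjusted p = 0.165). This was the 1 such p among the GIF genes in *tsh1 tsh4*, with 0 in *tsh1* and 0 in *tsh4*.

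Of 8 ARGOS-like genes, 5 are listed, and 2 of them were called in *tsh1*, both higher, against 0.441% of all genes. The other gene beside *zar1* was *ZAR3* (GRMZM2G137546), at 37.5 ± 2.21 CPM in *tsh1* and 17.3 ± 2.67 CPM in B73, a log2 fold change of 1.13 (SE 0.21, limma adjusted p = 0.00892). This call was lost without B73 replicate 2 (adjusted p = 0.0613) or *tsh1* replicate 3 (adjusted p = 0.0514). *ZAR3* did not follow *zar1* in the other mutants, where *tsh4* had 17.7 ± 3.72 CPM and *tsh1 tsh4* had 15.8 ± 4.01 CPM. It was lower in *tsh1 tsh4* than in *tsh1* by limma (log2 difference -1.27, SE 0.21, adjusted p = 0.0011), and its interaction of -1.302 did not pass (adjusted p = 0.0987). By limma, *zar1* was the 1 ARGOS-like gene called in *tsh4* and in *tsh1 tsh4*, against 2.04% and 2.69% of all genes called higher. DESeq2 also called *ARGOS9* higher in *tsh1 tsh4* (1.03, adjusted p = 0.0288), where limma gave 0.86 (adjusted p = 0.107).

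Other growth genes were listed by name, 10 in all. Members of their families without such a name may be missing, so the list does not stand for whole families. In *tsh1 tsh4* limma called 2 of these 10 genes, both higher, against 2.69% of all genes, and it called 0 in *tsh1* and in *tsh4*. Of 3 D-type cyclins, which promote entry into the cell cycle, *cycD1* was called in *tsh1 tsh4*, at 63.8 ± 12.4 CPM in *tsh1 tsh4* and 28.2 ± 8.70 CPM in B73 (log2 fold change 1.2, limma adjusted p = 0.00109), and in *tsh4* it passed the adjusted p alone (0.90, limma adjusted p = 0.016). *cycD4* passed the adjusted p in *tsh4* (0.94, limma adjusted p = 0.00626) and *tsh1 tsh4* (0.98, limma adjusted p = 0.00307), under the fold threshold. Of 2 CYP78A genes, a cytochrome P450 family with roles in organ size, *CYP78A53* was called in *tsh1 tsh4* (1.77 ± 0.213 CPM against 0.376 ± 0.246 CPM in B73, log2 fold change 2.10, limma adjusted p = 0.00306), and by DESeq2 in *tsh1* as well. The other, *cyp78* (GRMZM2G167986), went the opposite way, with 4.48 ± 0.372 CPM for *tsh4* and 4.47 ± 0.523 CPM for *tsh1 tsh4*, against 9.07 ± 2.54 CPM in B73. Its log2 fold changes of -0.97 in both passed the adjusted p in limma (0.0402 and 0.0268, and 0.176 and 0.152 without B73 replicate 1) under the fold threshold, and edgeR and DESeq2 called it lower in both (-1.02 to -1.01). No call was made by limma, edgeR or DESeq2 among 2 AINTEGUMENTA-like genes, 2 ethylene receptors and 1 A-type cyclin. An unadjusted limma p of at most 0.05 was found for a different gene of these in each mutant. It was 1 ethylene receptor in *tsh1* (lower), the A-type cyclin in *tsh4* (higher) and 1 AINTEGUMENTA-like gene in *tsh1 tsh4* (higher). Over all 20168 genes, 1875, 3078 and 3702 had such a p.

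Markers of neighboring tissue were examined in the same libraries. A list of 9 KNOX genes was taken by name. The family includes transcription factors of the meristem, but the list was not sorted by class. Not every gene in it need mark the meristem. The summed CPM of the 9 ranged from 664 to 971 for *tsh1*, 555 to 774 for *tsh4* and 590.1 to 966 for *tsh1 tsh4*, against 922 to 1135 in B73. No KNOX gene was higher at an unadjusted limma p of at most 0.05 or by edgeR or DESeq2. At that p, 2, 4 and 3 of the 9 were lower in *tsh1*, *tsh4* and *tsh1 tsh4*. Over all 20168 genes, 1875, 3078 and 3702 had such a p in either direction. Of the 9, limma called 0 in *tsh1*, 1 lower in *tsh4* and 1 lower in *tsh1 tsh4*, against 1.77% of all genes called lower in *tsh4* and 3.15% in *tsh1 tsh4*. Under the fold threshold, *lg3* (-0.74, limma adjusted p = 0.0423) and *lg4b* (-0.74, 0.0371) passed the adjusted p in *tsh4*. So did *lg4b* in *tsh1 tsh4* (-0.79, 0.0176). Leaving out 1 library raised these adjusted p-values to at most 0.161, 0.198 and 0.0781. *kn1*, the meristem marker, did not pass in any mutant and was at 139 ± 55.4 CPM for *tsh1*, 112 ± 29.4 CPM for *tsh4* and 175 ± 66.0 CPM for *tsh1 tsh4*, against 179 ± 28.9 CPM in B73 (limma adjusted p = 0.798, 0.258 and 0.919). *gnarley1* was called lower in *tsh4* (log2 fold change -1.63, limma adjusted p = 0.00199) and in *tsh1 tsh4* (-1.10, adjusted p = 0.0226, and -0.79 with 0.0815 without *tsh1 tsh4* replicate 1). The boundary genes *ba1* and *baf1*, needed for axillary meristem initiation, were at 47.8 ± 11.0 and 9.72 ± 1.90 CPM in *tsh1 tsh4*, against 132.6 ± 13.9 and 37.7 ± 6.97 CPM in B73, and both were called lower by limma. In *tsh4* *baf1* was called lower too (-1.19, limma adjusted p = 0.00831), but not without B73 replicate 2 (adjusted p = 0.0573) or *tsh4* replicate 2 (0.0639). The part of the cells captured in the differences of the growth genes was not tested.

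The genes most like each of the 3 were taken by Pearson's r of log2(CPM + 0.1) over the 12 libraries, among 17271 genes with a mean of at least 1 CPM. These values are descriptions, since all libraries of a genotype share its mean. For *ZmGRF3* the highest was GRMZM2G163761 (r = 0.982), a homeobox gene named *kip1* in the RefSeq gene table, which averaged 31.5, 88.3 and 71.0 CPM in *tsh1*, *tsh4* and *tsh1 tsh4*, and 20.7 CPM in B73. It was followed by GRMZM2G142721 and GRMZM2G009869 (r = 0.963 each). For *ZmGRF5* these were GRMZM2G122780 (r = 0.975), GRMZM2G137541 (0.974) and GRMZM2G060837 (0.960), and for *zar1* GRMZM2G431504 (0.936), GRMZM2G150726 (0.935) and GRMZM2G011832 (0.931). Between the genes themselves r was 0.904 for *ZmGRF3* with *ZmGRF5*, 0.677 for *ZmGRF3* with *zar1* and 0.548 for *ZmGRF5* with *zar1*. Among the 17271 genes, *ZmGRF5* ranked 63 by its r with *ZmGRF3*. *zar1* ranked 1204 by its r with *ZmGRF3* and 1564 by its r with *ZmGRF5*.

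The neighbors of the 3 genes along the chromosome were read from the gene order of the RefSeq table, which is that of NAM-5.0 and not of the build used for counting. Within 3 genes on each side, 3 identifiers near *ZmGRF3* and 5 near *ZmGRF5* are matched to the deposited table, and none was called in any mutant by limma, edgeR or DESeq2, with 1 of the 8 at an unadjusted p of at most 0.05 in *tsh4* and in *tsh1 tsh4* and 0 in *tsh1*. Near *zar1* 1 of 6 is matched, GRMZM2G074793, the gene directly beside it, and it was called higher in all 3 mutants. Its level was 29.7, 58.1 and 44.7 CPM for *tsh1*, 21.6, 31.7 and 33.5 CPM for *tsh4* and 56.8, 23.9 and 38.2 CPM for *tsh1 tsh4*, against 7.63, 9.34 and 6.34 CPM in B73. No mutant library overlapped B73, and the log2 fold changes were 2.46, 1.88 and 2.27 (SE 0.29 each, limma adjusted p = 0.000176, 0.000757 and 6.55e-05). Its r with *zar1* was 0.930. The gene was singled out after its values were seen. None of the 3 growth genes lies on the chromosome of *tsh4*, and the place of *tsh1* was not matched in that table.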

How the data were processed

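The authors sequenced amplified RNA from laser-microdissected bract primordia in 12 libraries. Per the submitters' processing notes, reads were trimmed with Trimmomatic 0.36, aligned with STAR 2.6.0a and counted with featureCounts. In the deposited table each gene has a normalized signal for every library, the TMM-normalized CPM from edgeR 3.22.5 with 3 decimals, and genes not above 0.25 CPM in at least 3 libraries were left out by the authors. The study's methods do not state how reads shared by similar GRF genes were counted, and such reads may affect the levels of these genes.

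At least 99.995% of the values per library were whole multiples of 1 read within rounding, which gave 49481413 to 110703826 reads per library. A count of 3 reads corresponds to 0.0265 to 0.0651 CPM.

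Genotypes came from the sample titles. limma 3.58.1 in R 4.3.3 (intensity trend) was fitted to log2(CPM + 0.1) of all 12 libraries and 20168 genes, with Benjamini-Hochberg adjustment per contrast. The fit was also run on simulated counts with the same dispersion for every gene. They held no amplification noise or outlying libraries, so that run says nothing about either. P-values measure the spread between biological replicates. The alternatives tried were a pseudocount of 0.01 or 1, a minimum mean of 1 CPM, the compared genotypes alone, no trend, a replicate block, equal library totals, median centering, count models of the recovered reads (edgeR 4.0.16, DESeq2 1.42.0), the adjusted p alone, and leaving out libraries. The labels do not tie replicate numbers to a shared batch. Deviations from the genotype means correlated above 0.1 in all 3 same-numbered pairs of *tsh1 tsh4* with B73 (0.24 to 0.65), so these were taken as pairs in an added fit of those 6 libraries with the number as a block, and in at most 2 of 3 pairs for every other 2 genotypes. Over all genotypes, the 36 differently numbered pairs ranged from -0.52 to 0.51, so such correlations also occurred without a shared number.

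The 3 genes and the gene lists were chosen with earlier results of these data known. Families were taken by name from the RefSeq gene table, to which 14380 of 20168 identifiers (71.3%) matched. All GRF, GIF and ARGOS-like genes could be named. From other lists called genes were named, and for each of the 3 genes the 3 with the highest r. No sequence or coordinate is given, because the genome and its sequences were not used here.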

Additional observations from a re-analysis of the deposited data

How the results depend on the processing

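Across the alternatives, the direction of all 3 genes against B73 was kept except for *ZmGRF5* in *tsh1*, which was never called and ran from -0.035 to 0.28 when single libraries were left out. A pseudocount of 1 gave 0.82 in *tsh4* and 0.96 in *tsh1 tsh4* for *zar1*, which left 0 ARGOS-like genes called in each, and it called 150, 414, 650, 364 and 385 genes for *tsh1*, *tsh4* and *tsh1 tsh4* against B73, *tsh4* against *tsh1* and *tsh1 tsh4* against *tsh1*. For *ZmGRF3* in *tsh1 tsh4* the call was lost with only the compared genotypes (1.02, adjusted p = 0.0541), without trend (1.02, adjusted p = 0.0585), with equal library totals (0.9997, just under the threshold) and without the deepest libraries (0.90), and 1 GRF gene was then called in each. The fit without trend also ended its call in *tsh4* against *tsh1* (1.13, limma adjusted p = 0.0564). By adjusted p alone *ZmGRF5* passed in *tsh1 tsh4* (0.95), in *tsh4* against *tsh1* (0.90) and in *tsh1 tsh4* against *tsh1* (0.80), and 5 GRF genes passed in *tsh1 tsh4*. With a minimum mean of 1 CPM, 763, 480 and 85 genes were called in *tsh1 tsh4* against B73, *tsh1* and *tsh4*. DESeq2 called 370 genes in *tsh1*, 214 in *tsh1 tsh4* against *tsh4*, 157 interactions and 2 ARGOS-like genes in *tsh1 tsh4*. For *zar1* in *tsh1 tsh4* against *tsh1*, edgeR gave 0.0037 and DESeq2 0.011 in place of -0.10. Without the deepest library of each genotype, chosen after the data were seen, *tsh1 tsh4* against *tsh4* had 541 calls and *zar1* was at -0.37, *ZmGRF5* in *tsh4* against *tsh1* was at 1.095 and called, the interactions were -2.74 for *zar1* and -1.34 for *ZmGRF3* with 452 calls, and 5 GRF genes were called in *tsh4*. The cause of these shifts was not tested. Leaving out 1 library at a time, in limma fits that pool the spread, gave 0.93 to 1.18 for *ZmGRF5* in *tsh4*, 0.68 to 1.23 for *ZmGRF3* and 0.83 to 1.08 for *ZmGRF5* in *tsh1 tsh4*. In *tsh4* against *tsh1* the range was 0.92 to 1.32 for *ZmGRF3* and 0.77 to 1.09 for *ZmGRF5*, and in *tsh1 tsh4* against *tsh1* it was -0.51 to 0.15 for *zar1*. In *tsh1 tsh4* against *tsh4* it was -0.20 to 0.023 for *ZmGRF5*, -0.23 to 0.43 for *zar1* and 71 to 160 calls. The interaction ran from -2.22 to -1.56 for *zar1*, with 34 to 84 calls. GRF genes called in *tsh1 tsh4* were 1 to 3, and ARGOS-like genes in *tsh1* 1 to 2. For *tsh1 tsh4* against B73, where same-numbered libraries deviated together, a replicate block in a fit of those 6 libraries called 1376 genes. This block was chosen after the data were seen. Set against the fit of all 12 libraries, it changed no call of the 3 genes (limma adjusted p = 5.32e-06 for *ZmGRF3*, 1.46e-05 for *ZmGRF5* and 2.41e-05 for *zar1*). Without the block, the fit of the same 6 libraries called 1082 genes and did not call *ZmGRF3* (limma adjusted p = 0.0541). For the other comparisons the numbers were not taken as pairs. With a replicate block over all 12 libraries the counts were 193, 740 and 1112 genes against B73, in place of 234, 768 and 1178, and no call of the 3 genes changed (*zar1* in *tsh1* had an adjusted p of 0.018 from limma). With 15 to 237 reads, *zar1* is the gene most limited by depth.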
